A study of Mus musculus with 16 samples.

Results

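Control line 4 is 1 of 4 lines of mice that were bred with no selection for running, beside 4 High Runner (HR) lines bred for high voluntary wheel running. The line contributed 2 of the 16 RNA-seq libraries of the vomeronasal organ (VNO), 1 from the combined VNOs of 3 males and 1 from those of 3 females. Its members were taken by the line number in the sample labels. They were compared with the 6 libraries of Control lines 1, 2 and 5, each line again giving 1 male and 1 female pool of 3 mice. All mice were 12 weeks old, came from generation 88 of the breeding experiment and traced back to the outbred Hsd:ICR strain, and no mutation, transgene or drug was part of the design. The 8 libraries of HR lines 3, 6, 7 and 8 served only to show how far other lines ranged. Each of the deposited tables held the libraries of 1 sex, so that sex and table cannot be told apart. The male and female pools of line 4 held different mice but 1 breeding line, so each *p* value compares 1 line with 3 lines through pools and says nothing of Control mice at large. The main fit counted the 2 pools of a line as separate replicates, with no term for the line they share. Its SE and *p* values can therefore be too small for a comparison with the line as the unit.

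The VNO is a tube of sensory epithelium in the nasal septum, enclosed in a capsule of cartilage and bone, which detects pheromones and other social odors. Each vomeronasal sensory neuron (VSN) expresses 1 or a few receptor genes of the *Vmn1r*, *Vmn2r* or *Fpr* families, which lie in clusters of closely related copies that differ widely between mouse strains. VSNs of the apical layer use *Vmn1r* receptors with the G protein subunit encoded by *Gnai2*, and those of the basal layer use *Vmn2r* receptors with the subunit encoded by *Gnao1*. Stratified epithelium of skin, mouth and the nasal entrance is another kind of tissue, which builds keratin filaments and a cornified envelope and is not part of the sensory epithelium.

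Counts on genes were 36734512 in the line 4 female library and 37846831 in the line 4 male library, within the 15998552 to 70875276 of the 8 Control libraries. Levels are given as CPM, the counts of a gene per 1000000 counts of the library size after TMM scaling. Markers of VSNs were present in both line 4 libraries. *Omp*, which marks mature sensory neurons, stood at 1961 CPM in the female and 1870 CPM in the male library, and its log2 fold change against lines 1, 2 and 5 was -0.07 (SE 0.23). *Gnao1* stood at 445 and 381 CPM and *Gnai2* at 981 and 1049 CPM, with log2 fold changes of 0.02 (SE 0.17) and -0.19 (SE 0.23). None of these 3 passed the test. *Trpc2*, the transduction channel of VSNs, was listed at 0 counts in 16 of 16 libraries and could not serve as a marker. The level of *Xist* against *Ddx3y* matched the labelled sex in 16 of 16 libraries. In bulk tissue, fewer cells of a type and less RNA per cell cannot be told apart.

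Of 16852 genes tested with edgeR's quasi-likelihood test, with the table as a covariate, 28 had an adjusted *p* under 0.05 (0.166%). Of these, 10 were higher (0.0593%) and 18 lower (0.107%) in line 4. In each table, the line 4 pool lay beyond the 3 other Control pools on the same side for all 28 genes. That pattern on its own was common, since 1627 genes (9.65%) lay above the other Control pools in both tables and 1852 (11%) lay below them. In 18 of the 28 genes, both line 4 libraries also lay beyond all 14 other libraries of the series, HR lines included. The number of the 28 genes that kept their call depended on single libraries, and was 17 without the line 5 female library. It was 8 without the line 1 female library, 9 without the line 1 male, 14 without the line 2 female, 13 without the line 2 male, 4 without the line 5 male, 1 without the line 4 female library. Without the line 4 male library 52 genes were called, but only 10 of the 28 were among them. With the counts of each line summed, so that the line was the unit, 20 genes were called and 27 of the 28 lost their call, *Vmn2r107* being the exception. With the line as a replicate block, so that the spread was taken between the 2 pools of a line rather than between lines, 234 genes were called, the 28 among them. No gene among the 28 changed direction in any of these fits, and *Vmn2r107* was called in each of them.

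**Figure D1:**
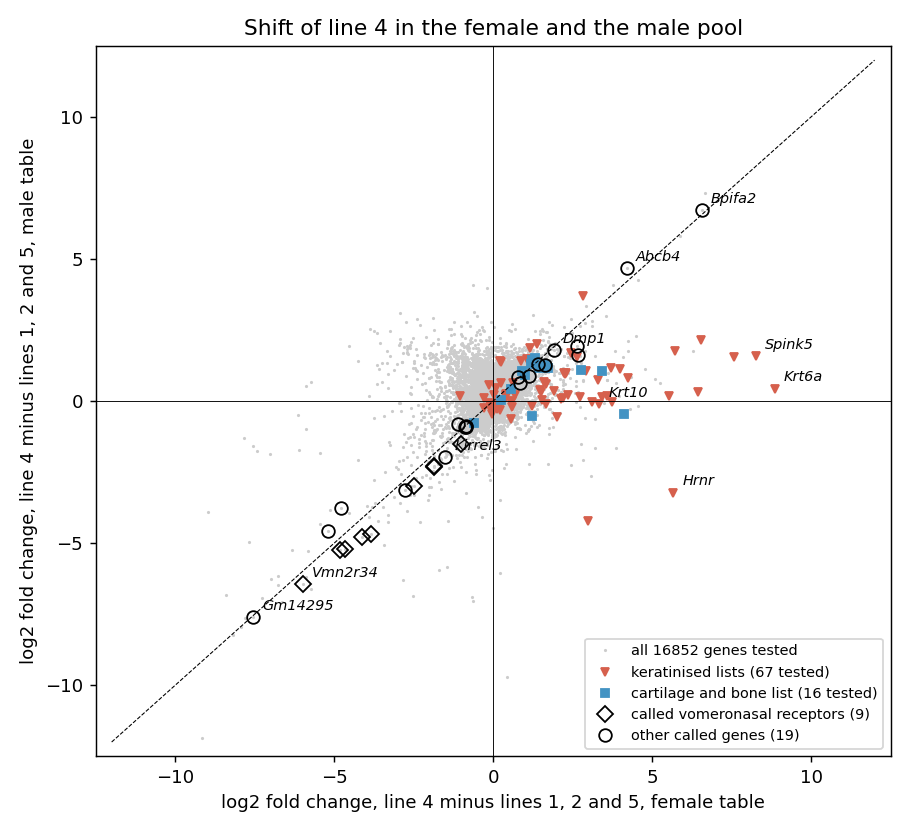
Log2 fold change of line 4 against lines 1, 2 and 5 in the female table (x axis) and the male table (y axis), 1 point per gene tested. The 28 called genes lie near the dashed diagonal of equal shift, while genes of the keratinised lists such as *Krt6a* and *Spink5* lie along the x axis, shifted in the female pool.

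The main group among the 28 genes was made of vomeronasal receptors. Of 285 receptors tested, 9 were lower and none was higher in line 4 at an adjusted *p* under 0.05, against 0.107% and 0.0593% of all genes. At an unadjusted *p* under 0.05 by edgeR, 90 receptors were lower and 16 higher, beside 1605 of all 16852 genes in either direction. DESeq2 called 42 lower and 3 higher while limma-voom called 5 lower and 0 higher. The totals of these tools over all genes are given with the alternatives below. The 9 receptors were 7 *Vmn2r* genes, of the family used by basal VSNs, and 2 *Vmn1r* genes, of the family used by apical VSNs. The count of 9 fell to 5 without either library of line 1, to 6 without the line 2 female or the line 5 female library, to 2 without the line 5 male library, to 1 without the line 4 female and to 4 without the line 4 male library, and it was 7 without the line 2 male library.

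*Vmn2r107* (chr17:20345242-20383113, plus strand, GRCm38) had 5.03 CPM in the line 4 female and 3.04 CPM in the line 4 male library. The 6 other Control libraries had 72.2 to 103 CPM with a median of 83.9, and the 8 HR libraries 63.2 to 120 with a median of 89.9. Line 4 stood alone at the low end, with a mean 21.2-fold below the mean of the other Control lines (log2 fold change -4.42, SE 0.24, adjusted *p* = 0.00263). *Vmn2r93* (chr17:18298099-18331914, plus strand) had 3.53 and 2.43 CPM in the female and male library of line 4. It had 76.8 to 124 CPM (median 90.8) in the other Control libraries and 70.2 to 109 (median 89.0) in the HR libraries, so that the groups did not overlap (log2 fold change -5.02, SE 0.30, adjusted *p* = 0.00263). *Vmn2r100* (chr17:19504732-19535231, plus strand) had 1.68 and 0.978 CPM in line 4, and the other Control libraries spread from 20.4 to 58.5 CPM with a median of 38.6. The shift of *Vmn2r100* was of the same order (log2 fold change -4.92, SE 0.56, adjusted *p* = 0.0303), and the lowest of the HR libraries had 26.4 CPM. Of these 3 genes, 94.5%, 99.6% and 99.6% of the 75-base words of the annotated transcripts occurred in no other gene, so that few of their reads could be shared with a relative.

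The other 6 receptors lay in 1 cluster on chromosome 7. *Vmn2r54* (chr7:12613839-12640319, minus strand) had 3.53 and 2.43 CPM in line 4 against 36.0 to 80.5 in the other Control libraries (median 52.3), a log2 fold change of -4.22 (SE 0.44, adjusted *p* = 0.0226). The tables list the same 139 and 92 counts for *Vmn2r54* and *Vmn2r93* in the female and the male library of line 4, and different counts in the other libraries. The cause of this match is not known, so the line 4 levels of both genes are less certain. *Vmn2r53* (chr7:12562851-12608788, minus strand), the neighbour of *Vmn2r54*, kept more of its level, with 9.36 and 7.83 CPM against 29.1 to 46.6 (median 34.7). Its log2 fold change was -2.08 (SE 0.22, adjusted *p* = 0.0243). *Vmn1r71* (chr7:10744543-10754364, minus strand) had 1.86 and 1.53 CPM against 8.41 to 13.3 (median 11.7), and *Vmn1r67* (chr7:10443331-10449202, plus strand) had 6.81 and 5.47 against 18.8 to 33.3 (median 25.7). The log2 fold changes of these *Vmn1r* genes were -2.72 (SE 0.23, adjusted *p* = 0.0103) and -2.07 (SE 0.26, adjusted *p* = 0.0446).

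*Vmn2r34* (chr7:7670804-7689513, minus strand) showed the largest fitted receptor shift, with 6 counts (0.153 CPM) in the female and 4 counts (0.106 CPM) in the male library of line 4. The other Control libraries had 5.71 to 13.2 CPM (median 9.33), and the log2 fold change was -6.19 (SE 0.53, adjusted *p* = 0.0103). *Vmn2r30* (chr7:7310437-7337609, minus strand) showed the smallest, with 53.2 and 44.5 CPM against 93.9 to 139 (median 119), a log2 fold change of -1.24 (SE 0.16, adjusted *p* = 0.0446). These genes, like *Vmn2r54*, share much sequence with relatives. Only 16.1% of the 75-base words of *Vmn2r34*, 57.1% of those of *Vmn2r30* and 51.3% of those of *Vmn2r54* were unique to the gene, so their counts rest on part of the transcript and are less certain. For all 9 receptors both line 4 libraries lay below every one of the other 14 libraries. Reads with any mismatch to the reference genome had been discarded before counting, and a lower level of a transcript and a transcript whose sequence departs from the reference cannot be told apart in these tables.

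**Figure D2:**
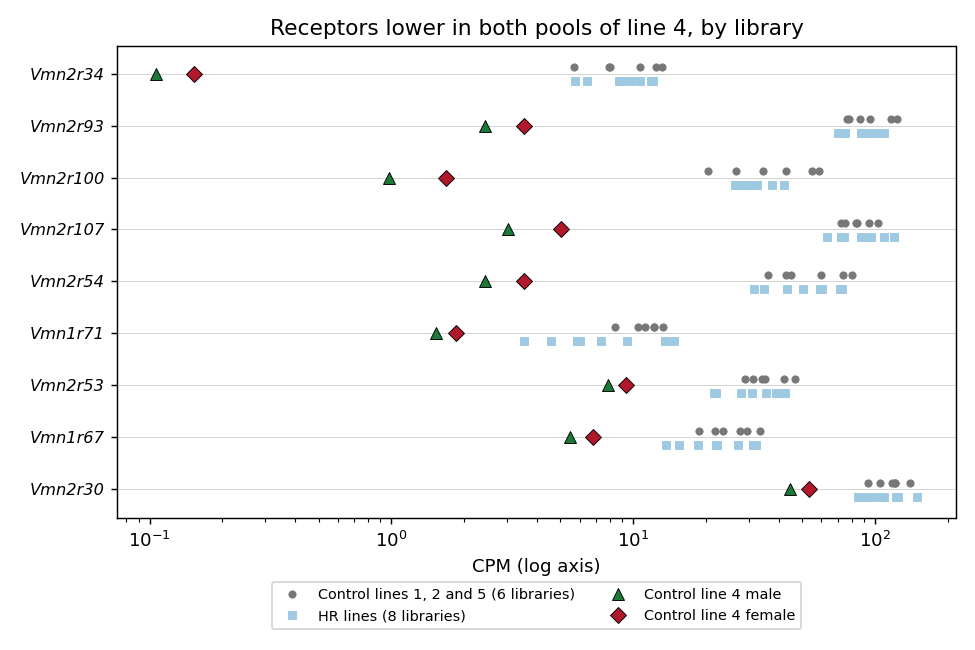
CPM (log axis) of the 9 called receptors in each library, with line 4 female as red diamonds, line 4 male as green triangles, the 6 libraries of Control lines 1, 2 and 5 as grey dots and the 8 HR libraries as blue squares. In each receptor the line 4 pair sits to the left of all 14 other libraries, from *Vmn2r34* at 0.153 and 0.106 CPM to *Vmn2r30* at 53.2 and 44.5 CPM.

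The called receptors lay close to one another and among receptors that moved both ways. Over all 28 called genes, 12 had another called gene within 1 Mb (42.9%), against 471 of the 16652 tested genes with a position (2.83%). Receptor genes lie in dense clusters, so called receptors lie near one another more readily than genes at large. The share among tested receptors was not taken. The 6 receptors of chromosome 7 lay in a cluster of 50 tested receptors (chr7:7231327-13220657), in which 31 were lower and 19 higher in line 4. In that cluster 21 receptors were lower and 11 higher at an unadjusted *p* under 0.05, and 20 lay below and 15 above the other Control pools in both tables. *Vmn1r75*, for example, had a log2 fold change of 1.76 (SE 0.30, adjusted *p* = 0.135), and *Vmn2r37*, of whose words 14.3% were unique, one of 1.66 (SE 0.31, adjusted *p* = 0.159). Neither passed the test, and both were chosen after their values were seen.

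The 3 receptors of chromosome 17 lay in a cluster of 41 tested receptors (chr17:17703747-21314912), of which 30 were lower and 11 higher, with 15 lower and 3 higher at an unadjusted *p* under 0.05. *Vmn2r94*, next to *Vmn2r93*, had a log2 fold change of -3.77 (SE 0.59) that missed the threshold (adjusted *p* = 0.0993). The cluster on chromosome 13 (chr13:22084440-23253906) was made of 35 tested *Vmn1r* genes. There 33 of 35 were lower with a median log2 fold change of -0.63, and 22 lay below the other Control pools in both tables. None was called, although 18 were lower at an unadjusted *p* under 0.05 by edgeR. This cluster was not alone in being mostly lower with no call. Of the tested receptors at chr6:56924015-58475330, 25 of 26 were lower, and at chr7:84935565-87044941 15 of 15, with none called in either. Another cluster of chromosome 17 (chr17:22544504-23479699) had 4 lower and 4 higher.

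Taken over the whole family, receptor levels were lower in line 4 by a small amount. The median log2 fold change of the 285 receptors was -0.37, against 0.00 over all genes tested, with 232 lower and 53 higher. The pools differed in the size of the shift, with a median of -0.25 in the female and -0.45 in the male table. In all, 108 receptors lay below the other Control pools in both tables and 24 lay above them, against 11% and 9.65% of all genes. The median was -0.38 over 158 *Vmn1r* genes and -0.34 over 122 *Vmn2r* genes. It was -0.36 over the 187 receptors with at least 90% unique words and -0.40 over the 96 with fewer. The summed level of all receptors was 7232 CPM in the line 4 female and 6403 CPM in the line 4 male library, below the 7550 to 9163 of the other Control libraries, while the HR libraries reached from 6661 to 9409, the lowest being the HR line 3 male library.

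Outside the receptors, *Gm14295* (chr2:176798612-176811223, plus strand) was lower in line 4, with 0 counts in both line 4 libraries (adjusted *p* = 0.0243 by edgeR). The other Control libraries had 0.515 to 0.695 CPM (median 0.550), and with a floor of 3 counts over both libraries together its mean was at least 14.6-fold lower in line 4. HR libraries ranged from 0 to 0.927 CPM, 2 of the 8 being at 0, and 37.1% of the words of the gene were unique to it. *Rnaset2b* (chr17:6970634-7011299, plus strand), which encodes a ribonuclease of the T2 family, had 3 and 4 counts (0.0763 and 0.106 CPM) in line 4 against 1.78 to 3.32 CPM (median 2.89). Its log2 fold change was -4.87 (SE 0.42, adjusted *p* = 0.0103), but 3 HR libraries were as low as line 4, and 48.6% of its words were unique. The pseudogene *Gm1966* also had 3 and 4 counts in line 4, against 1.16 to 2.44 CPM in the other Control libraries and 0.593 to 1.65 in the HR libraries (log2 fold change -4.24, SE 0.41, adjusted *p* = 0.0195). The antisense gene *4930511M06Rik* had 0.458 and 0.238 CPM in line 4 against 1.69 to 3.71 (log2 fold change -2.93, SE 0.34, adjusted *p* = 0.0325).

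Among the called genes lower in line 4 that are not receptors, the well expressed ones moved less. *Kirrel3* (chr9:34485894-35036716, plus strand), which encodes an adhesion molecule that takes part in the sorting of VSN axons, had 40.4 CPM in the female and 32.0 CPM in the male library of line 4. The other Control libraries had 92.7 to 135 CPM (median 125) and the HR libraries 88.7 to 165, so that line 4 lay below all of them, 3.32-fold below the mean of the other Control lines (log2 fold change -1.73, SE 0.17, adjusted *p* = 0.0195). *Slc25a17*, a transporter of the peroxisomal membrane, had 33.5 and 32.7 CPM against 56.1 to 65.4 (log2 fold change -0.90, SE 0.09, adjusted *p* = 0.0195). *Lrpprc*, which encodes a protein that stabilises mitochondrial messenger RNA, had 55.7 and 47.5 CPM against 81.4 to 108 (log2 fold change -0.85, SE 0.10, adjusted *p* = 0.0299). *Tiparp*, an ADP-ribosyltransferase induced by the aryl hydrocarbon receptor, had 21.8 and 21.9 CPM against 37.2 to 46.4 (log2 fold change -0.89, SE 0.12, adjusted *p* = 0.0463). The HR libraries did not reach the line 4 levels in any of these 4 genes.

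A pair of neighbours on chromosome 5 moved in opposite directions. *Abcb4* (chr5:8893717-8959231, plus strand), which encodes a phospholipid transporter best known from the liver, had 8.47 and 10.26 CPM in the female and male library of line 4. The other Control libraries had 0.259 to 0.704 CPM (median 0.423) and the HR libraries 0.281 to 0.998, so that only line 4 showed this level, 21.6-fold above the other Control lines (log2 fold change 4.46, SE 0.32, adjusted *p* = 0.00497). *Dmtf1* (chr5:9118801-9161776, minus strand), which encodes a transcription factor of the cyclin D pathway, had 43.4 and 41.9 CPM against 70.1 to 94.4 (median 84.8). Its log2 fold change was -0.96 (SE 0.09, adjusted *p* = 0.0195), and all HR libraries lay between 70.5 and 97.4 CPM. *Tmem243*, which overlaps *Dmtf1* on the opposite strand over 42186 bases, had a log2 fold change of -0.70 that did not pass the test (SE 0.19, adjusted *p* = 0.337), and since the use of the strand in counting is not given in the sources used here, reads of this pair may be split between them.

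**Figure D3:**
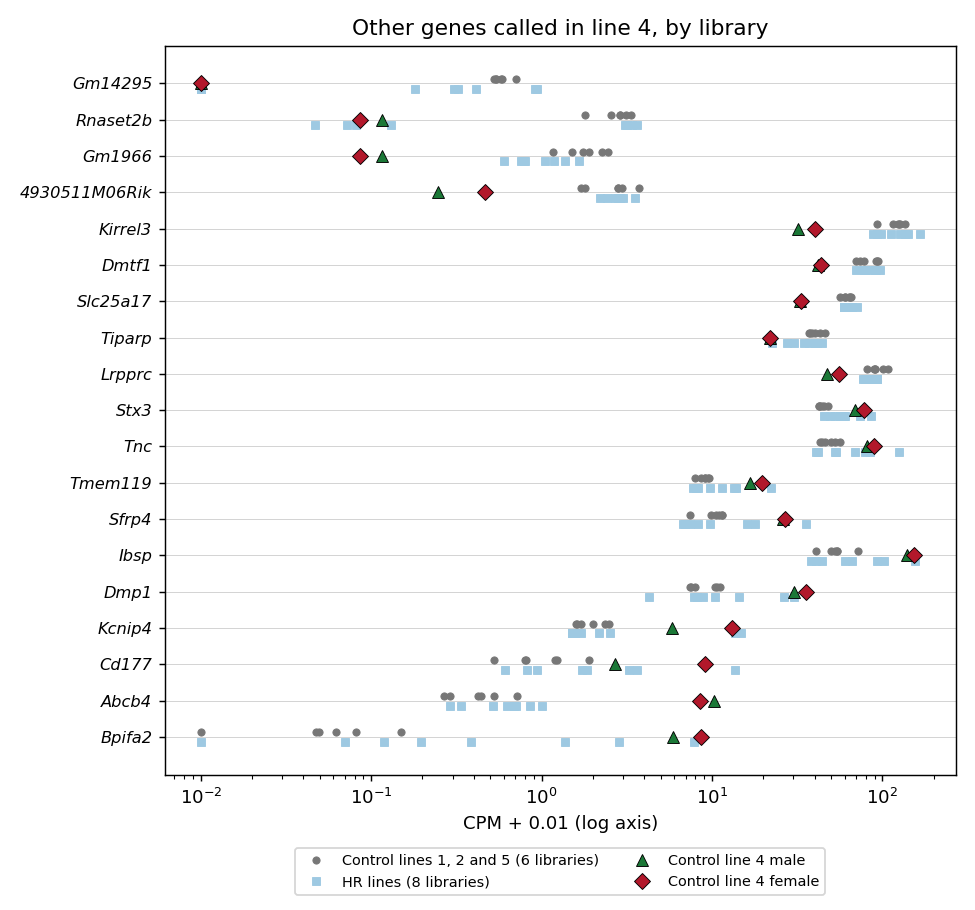
CPM + 0.01 (log axis) of the 19 called genes that are not receptors, by library, with symbols as in the plot of receptors. *Abcb4* stands at 8.47 and 10.26 CPM in line 4 and under 1 CPM in the 14 other libraries, whereas *Rnaset2b* is as low in 3 HR libraries and 8 of the 10 genes higher in line 4 are matched by 1 to 3 HR libraries.

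Of the cartilage and bone list, 1 gene was called, *Ibsp*. *Ibsp* (chr5:104299171-104311469, plus strand), which encodes bone sialoprotein, had 153 and 139.6 CPM in the female and male library of line 4 against 40.7 to 72.3 (median 53.5) in the other Control libraries. Its mean was 2.71-fold higher (log2 fold change 1.45, SE 0.17, adjusted *p* = 0.0325), yet the HR libraries reached 156 CPM. *Dmp1* (chr5:104202613-104214102, plus strand), its neighbour and a matrix protein of osteocytes and dentin, had 35.9 and 30.5 CPM against 7.41 to 11.1 (median 9.19). *Dmp1*, which is on no list, was 3.61-fold higher (log2 fold change 1.85, SE 0.19, adjusted *p* = 0.0195), with up to 30.3 CPM in the HR libraries. The genes that follow were called but are on no list. *Tmem119*, which is expressed in osteoblasts, had 19.6 and 16.7 CPM against 7.93 to 9.60 (log2 fold change 1.01, SE 0.13, adjusted *p* = 0.0446). *Sfrp4*, a secreted Wnt antagonist, had 27.0 and 26.0 CPM against 7.41 to 11.5 (log2 fold change 1.36, SE 0.17, adjusted *p* = 0.0392), and *Tnc*, the matrix protein tenascin C, had 88.9 and 81.4 CPM against 43.2 to 56.5 (log2 fold change 0.80, SE 0.10, adjusted *p* = 0.0384).

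All 16 genes of the cartilage and bone list were tested. In it 15 were higher in line 4, 12 of them at an unadjusted *p* under 0.05 by edgeR, beside 1605 of 16852 genes in either direction. Of the 16 genes, 11 lay above the other Control pools in both tables, against 9.65% of all genes. Only *Ibsp* was called by edgeR, against 10 by DESeq2 and 2 by limma-voom. The median log2 fold change was 1.32. It was 1.28 in the female and 1.08 in the male table, and without the line 4 female library 13 of 16 were still higher, with 9 at an unadjusted *p* under 0.05 and a median of 1.07. The abundant members were the collagen I genes *Col1a1*, at 964 and 1001 CPM in line 4 against 279.5 to 541, and *Col1a2*, at 1522 and 1450 against 450.1 to 936. *Spp1* (osteopontin) had 297 and 251 CPM against 74.0 to 142, and *Ctsk*, a protease of osteoclasts, had 104 and 105 against 41.2 to 67.2. These 4 genes had adjusted *p* values of 0.0993, 0.143, 0.143 and 0.144 and were not called.

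Cartilage genes of the list were less uniform. *Col10a1*, of hypertrophic cartilage, had 7.14 CPM in the female but 0.264 CPM in the male library of line 4, and *Acan*, the proteoglycan aggrecan, had 7.70 and 1.40 CPM. *Matn1*, at 1.32 and 1.30 CPM, and *Comp*, at 4.42 and 2.99 CPM, lay within the range of the other Control libraries in both pools. The summed level of the list was 3429 CPM in the female and 3279 CPM in the male library of line 4, above the 1043 to 1951 of the other Control libraries. Among the 16 libraries the line 4 pools ranked 2 and 3, below the HR line 3 male library with 5024 CPM and above the HR line 3 female library with 2549 CPM. The amount of capsule taken with each VNO is not recorded in the labels, and its part in these values was not tested.

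**Figure D4:**
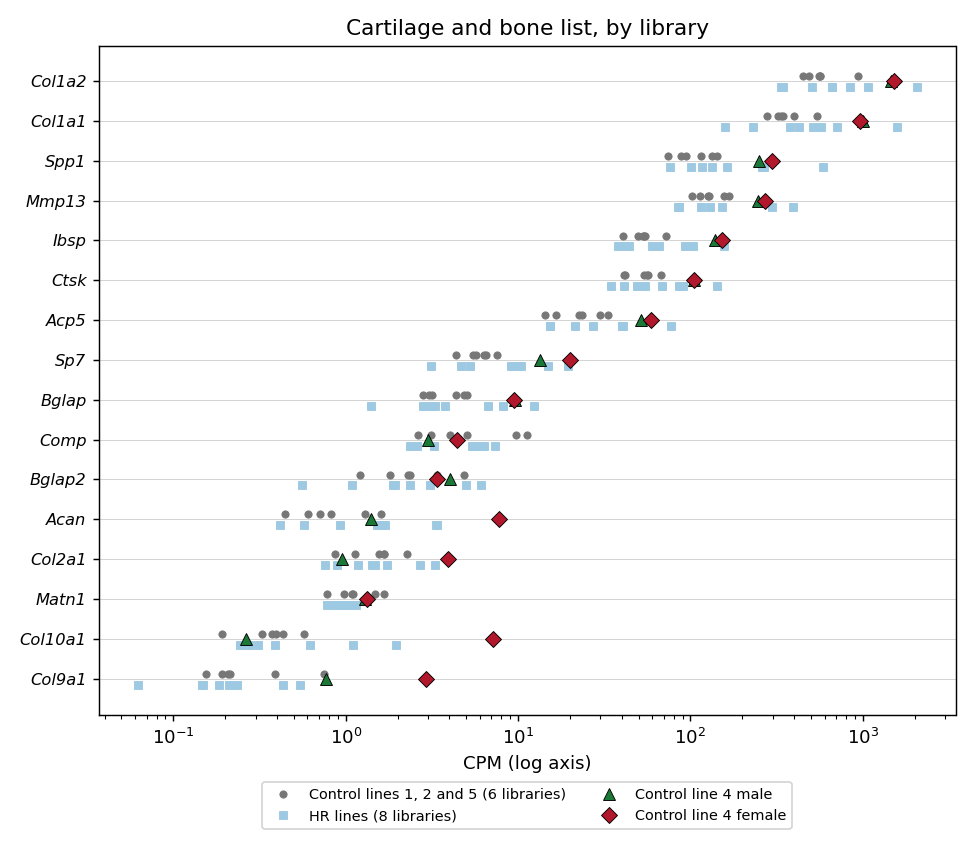
CPM (log axis) of the 16 genes of the cartilage and bone list by library, with symbols as in the plot of receptors. In 11 genes each line 4 library lies to the right of the 3 other Control libraries of its own sex, from *Col1a2* at 1522 and 1450 CPM downwards. HR libraries reach or pass line 4 in most of the abundant genes.

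The remaining genes that were higher in line 4 were of mixed kind. *Bpifa2*, a salivary protein of the BPI fold family, had 8.64 and 5.87 CPM in the female and male library of line 4 against 0 to 0.140 CPM (median 0.0457) in the other Control libraries. Its log2 fold change was 6.64 (SE 0.45, adjusted *p* = 0.00406), and 1 HR library with 7.80 CPM lay at the level of line 4. *Cd177*, a surface glycoprotein of neutrophils, had 9.15 and 2.70 CPM against 0.515 to 1.90, and 3 HR libraries lay at or above the line 4 male (log2 fold change 2.31, SE 0.28, adjusted *p* = 0.0384). *Kcnip4*, which encodes a protein that binds voltage-gated potassium channels, had 13.0 and 5.79 CPM against 1.58 to 2.49 (log2 fold change 2.19, SE 0.28, adjusted *p* = 0.0463). *Stx3*, a syntaxin of vesicle fusion, had 78.6 and 69.2 CPM against 42.3 to 47.8 (log2 fold change 0.74, SE 0.09, adjusted *p* = 0.0325).

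Of 20 lists for cell types and functions, 18 held no gene called by edgeR. The other 2 were the cartilage and bone list and the list of apical and basal VSN genes with *Kirrel3*. Only 0.166% of all genes were called, so the lack of a call among the 289 genes tested in the 18 lists says little of them. At an unadjusted *p* under 0.05 by edgeR, 46 of the 289 were higher and 6 lower, beside 1605 of 16852 genes in either direction. Of the 46 and 6, 33 and 1 belonged to the keratinised lists. DESeq2 called 24 of the 289 higher and 0 lower, 22 of them in the keratinised lists, and limma-voom called 1 higher and 0 lower. The median log2 fold change was -0.07 over 19 genes of VSN transduction, -0.04 over the 9 *H2-Mv* genes that basal VSNs express and 0.13 over 19 genes of neurogenesis. Of 13 genes of olfactory sensory neurons, 12 were lower, 3 of them at an unadjusted *p* under 0.05 by edgeR, with a median of -0.35. That list is not specific to olfactory neurons. It shares *Omp*, *Rtp1*, *Cnga4* and *Gng13* with the VSN transduction list and *Ncam2* with the list of apical and basal VSN genes. The secretory genes of the nasal glands summed to 28045 CPM in the female and 92493 CPM in the male library of line 4, within the 10072 to 185310 of the other Control libraries.

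A separate feature was the level of genes of keratinised stratified epithelium in the line 4 female library. Many of these genes were far higher there than in any other Control library, while in the line 4 male they lay near the top of the other Control libraries or within their range. The values that follow chose these genes, so they are given as a description with no test. Of 114 genes of the keratinised lists in the tables, 96 had at least 10 counts in the line 4 female library, and 77 of these had their highest level among the 8 Control libraries there. In 46 of the 96 the line 4 female was over 4-fold above the highest of the other 7 Control libraries on the log2 CPM scale, against 118 of 16626 genes with as many counts (0.710%). The line 4 male was the highest of the 4 male Control libraries in 48 of the 96. The shares over all genes that would go with the 77 and the 48 were not taken. Of the 67 listed genes that were tested, 28 lay above the other Control pools in both tables, against 9.65% of all genes, and the median log2 fold change of the tested suprabasal genes was 3.05 in the female and 0.42 in the male table. *Krt5*, of the basal layer, had 146 CPM in the line 4 female, 39.1 CPM in the line 4 male and less in the 6 libraries of the other lines. Genes detected in 1 library alone do not pass the filter on low counts, and 74 of the 118 had not been tested.

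Among the 15 genes furthest above the other libraries were keratins of suprabasal layers. *Krt76*, a keratin of the palate and other oral epithelium, had 8044 counts (204.5 CPM) in the line 4 female, 7 counts (0.185 CPM) in the line 4 male and at most 10 counts in any other Control library. *Krt6a* had 172 CPM in the line 4 female and 0.0999 to 0.489 CPM (median 0.185) in the 7 others, and *Krt6b* had 57.8 CPM against 0 to 0.159. *Krt13*, of oral and oesophageal epithelium, had 34.3 CPM against 0 to 0.476, and *Krt16* and *Krt24* had 9.81 and 5.09 CPM with at most 1 count in each of the 7 others. The line 4 male had no more than 18 counts of any of these keratins.

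Components of the cornified envelope were high in the same library. *Rptn* (repetin) had 68.1 CPM against 0 to 0.168 in the 7 others, *Sprr3* 54.4 against 0 to 0.195, *Crnn* (cornulin) 20.6 against 0 to 0.0698 and *Cnfn* (cornifelin) 20.2 against 0 to 0.195. *Spink5*, an inhibitor of the kallikrein proteases of the epidermis, had 99.7 CPM against 0.0999 to 0.449. *Calm4*, *Crct1*, *Krtdap* and *Kprp* had between 10.8 and 24.8 CPM in the line 4 female and no more than 8 counts in any of the 7 others. All 15 genes were also higher than in any HR library, where the top levels were 29.0 CPM for *Krt76* and 16.2 CPM for *Rptn*.

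The keratin genes *Krt10*, *Krt14* and *Krt17*, which were well detected in every library, stood out by less than the 15 genes above. *Krt10*, a keratin of the epidermal suprabasal layers, had 206 CPM in the line 4 female against 16.7 to 25.1 (median 21.02) in the 7 others, *Krt14*, of the basal layer, 112 against 7.76 to 15.9 (median 10.54), and *Krt17* 386 against 40.9 to 83.9 (median 47.4). *Trp63*, the transcription factor of basal cells, had a log2 fold change of 0.45 (SE 0.46) between line 4 and the other Control lines and did not pass the test. The 77 suprabasal and envelope genes in the tables summed to 1785 CPM in the line 4 female and 170 CPM in the line 4 male, against 82.0 to 207 in the other Control libraries and 114 to 333 in the HR libraries. The 37 basal and junction genes, some of which other epithelia of the nose also express, summed to 3415 and 2244 CPM against 2362 to 2693.

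The difference between the pools was also put to a test across all genes. The interaction of table and line 4 gave no gene with an adjusted *p* under 0.05, 181 genes at an unadjusted *p* under 0.05 (1.07%), 19 calls by DESeq2 and 0 by limma-voom. The smallest adjusted *p* by edgeR was 0.0788. With 1 line 4 library per table, the shift of the female pool cannot be told apart from that of 1 dissection or library. *Col10a1* and *Acan* were the only genes of the other lists among the 118.

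**Figure D5:**
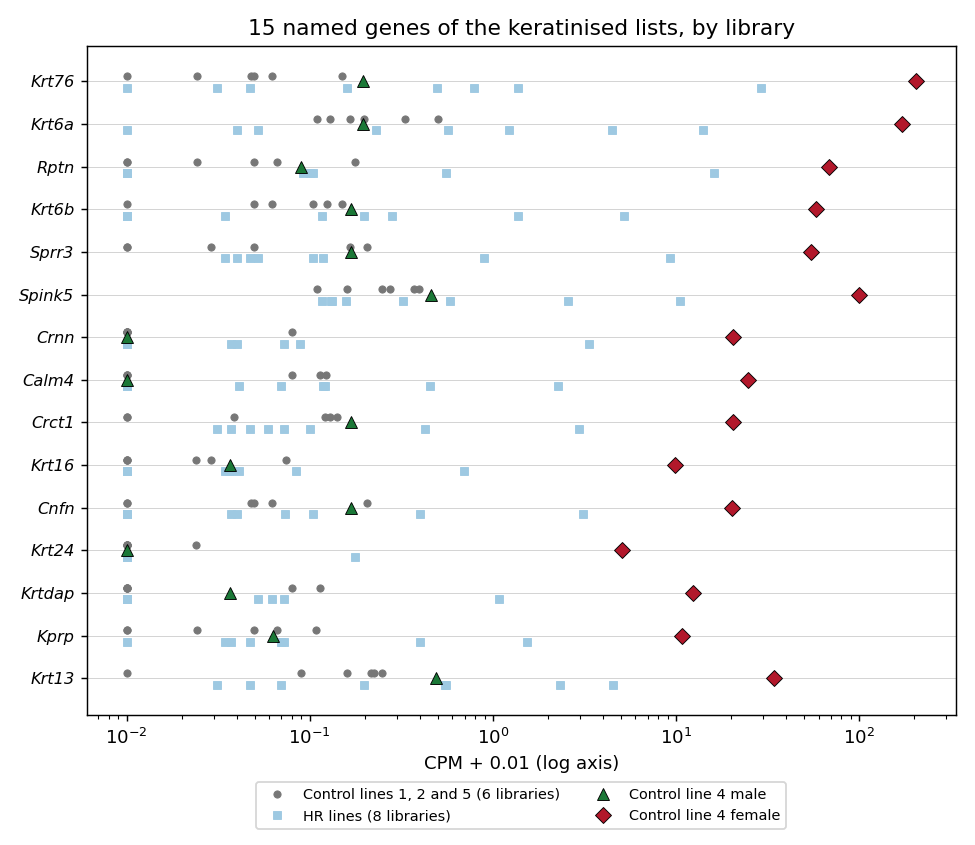
CPM + 0.01 (log axis) of the 15 genes of the keratinised lists that stand furthest above the other Control libraries, by library, with symbols as in the plot of receptors. The line 4 female lies between 5.09 and 204.5 CPM, and the line 4 male lies at or under 0.476 CPM, as do the 6 libraries of the other lines except for *Krt6a* at 0.489 CPM, with the line 4 male above those 6 in 5 of the 15 genes.

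With the 2 keratinised lists left out before normalization, 29 genes were called, 28 of them being the genes named above. None of the 28 was on these lists, so this fit could differ only through the scaling and the set of genes tested. The 70 genes on no list that were over 4-fold above in the line 4 female stayed in. The fit therefore does not show what that library as a whole adds to the calls. After the mean of each table was removed, the deviations of the female and male pool of a line correlated across the 16852 genes with a Pearson's r of 0.318 in line 4, 0.424 in line 1, 0.681 in line 2 and 0.504 in line 5. Genes are not independent, each pool's deviation is taken from a mean it is part of, and these values are a description.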

How the data were processed

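Total RNA of VNOs from pools of 3 mice was depleted of ribosomal RNA and sequenced as 75-nt single-end reads. Per the labels and the study's methods, the authors aligned reads to GRCm38/mm10 with STAR 2.6.1d, allowing no mismatch and keeping reads with 1 position. They deposited gene counts and RPKM values, 1 table per sex and unit, and the counting tool, the annotation and the use of strand are not given in the sources used here. The deposited RPKM values, made with Cufflinks, had been scaled separately per table and served only as an alternative unit. Reads that differ from the reference at any base were lost, which lowers the counts of genes with variants in a line.

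Both count tables were joined by gene name. Names listed more than once (4 rows per table) and 4 summary rows of the male table were left out, and 24407 genes remained. The 8 Control libraries were fitted in edgeR 4.0.16 (R 4.3.3) by the quasi-likelihood test with the table and line 4 as terms, TMM scaling, the expression filter at a minimum count of 10 and Benjamini-Hochberg adjustment over all genes tested at 0.05. The interaction of table and line 4 was fitted on the same genes. SE values are the absolute log2 fold change divided by the square root of the F statistic. CPM of HR libraries were put on the scale of the Control libraries. A gene was taken as shifted in both pools where it was called and its line 4 library lay outside the range of the other 3 Control libraries on the same side in each table. Of these, the 12 highest and 12 lowest, the 10 with the smallest *p*, and every receptor and listed gene were named, which covered all 28. Of the keratinised lists, the 15 genes furthest above the highest other Control library were named, among those with at least 10 counts in the line 4 female. The members and the gene lists were chosen with earlier results of these data known. Positions, overlaps and the share of 75-base words unique to a gene came from the GENCODE annotation and transcripts of GRCm38, with 16165 of the tested genes matched by name, 487 by an older name and 200 unmatched. The script was checked on simulated counts. Alternatives were DESeq2 1.42.0, limma-voom and limma (3.58.1) on RPKM, other scalings, filters and terms, summed lines, and fits without single libraries or lines. The female and male pools of a line share that line. The main fit counted them as separate replicates, and 1 alternative used the line as a replicate block. The deviations of the pools of a line from the table means had a Pearson's r of 0.318 to 0.681 across genes. Total counts of 15998552 to 70875276 per library set the counting error only. Same-table libraries differed beyond counting noise, with a chi-square per degree of freedom of 40.8 to 780 between them, so none was counted as a repeat of another.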

Additional observations from a re-analysis of the deposited data

Results flagged for a closer look

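Of 33 sets of values examined for a library that stands apart, 4 held one by Dixon's limit on the log2 scale, where chance alone gives about 1 in 20. Both sets of keratinised genes were among them, with the line 4 female library above the 7 other Control libraries. Since these sets were examined because that library is high in them, the chance rate does not apply to them. Its summed level was 1785 CPM for the suprabasal and envelope genes and 3415 CPM for the basal and junction genes. The other 2 concerned single libraries of the lines that line 4 was compared with. *Gm14295*, at 0 counts in line 4, had 0.695 CPM in the line 2 male library, above the other 5 libraries of lines 1, 2 and 5. *Sfrp4*, higher in line 4, had 7.41 CPM in the line 2 female library, below the other 5. The sets of single genes were the 28 called genes over the 6 libraries of lines 1, 2 and 5. The spread among those libraries had entered the test that called the genes, so the chance rate does not apply to these sets either.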

How the results depend on the processing

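The direction of all 28 genes was the same under the 23 alternatives that gave them a value, and *Vmn2r107* was called in each, but the number called varied widely. Against 28 genes, DESeq2 called 362 and the fit with the line as a replicate block 234, each with the 28 among them, and 351 and 193 of these lay on the same side in both pools. In the block fit the pools of a line count as repeats of that line, and differences between lines no longer enter the spread. It changed no call of the interaction. Leaving out 1 library at a time gave 1 to 52 calls, and 4 to 22 genes on the same side in both pools. Leaving out both libraries of line 1 gave 4 by either count and leaving out line 5 gave 304 by either count. With the counts of each line summed, 20 genes were called, of which *Vmn2r107* alone was among the 28. limma-voom called 36 (24 of the 28), log2(RPKM + 1) 30 (21 of the 28) and the fit over all 16 libraries 41 (16 of the 28). The interaction, with 0 calls by edgeR, gave 19 by DESeq2, 24 on log2(RPKM + 1) and 8 on log2(RPKM + 0.1). The median log2 difference of the tested keratinised genes between the line 4 female and the mean of the other 7 Control libraries was 1.87. It was 1.25 on log2(RPKM + 1) and 2.85 over all listed genes with at least 10 counts, an alternative chosen after seeing the data, as were the counts of bone and receptor genes without single libraries. The causes of these changes were not tested. Depth limits genes such as *Gm14295*, for which 3 counts over both line 4 libraries correspond to 0.0389 CPM.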

Other observations

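Of the 118 genes over 4-fold above the other Control libraries in the line 4 female, 70 were on no list, and the following were chosen after their values were seen. *Klk10*, a kallikrein-related protease, had 39.2 CPM in the line 4 female against 0.155 to 1.11 in the 7 other Control libraries, and *Klk13* had 17.6 CPM against 0 to 0.212. *Klk14* had 32.6 CPM against 0.195 to 4.48, and an HR library had 32.4 CPM. *Klk5*, of the keratinised lists, had 0 counts in the 8 Control libraries. *Scel* (sciellin), of the cornified envelope, had 25.5 CPM against 0.104 to 2.07, and *Serpinb2* had 17.7 against 0 to 0.131. *Car6*, a carbonic anhydrase of saliva, had 24.3 CPM against 0.244 to 4.03, with up to 43.2 in the HR libraries. Some genes known from cartilage, but not on the cartilage and bone list, were also among the 118. *Cytl1* had 28.6 CPM against 0.961 to 3.99 and *Clec3a* 2.62 against 0 to 0.106. *Ucma* had 1.83 against 0 to 0.238 and *Matn3* 1.04 against 0 to 0.198, and each of these genes lay above every HR library. Of the 16 genes on that list only 2, *Col10a1* and *Acan*, were among the 118. *Matn1* and *Comp*, of the same list, lay within the range of the other Control libraries in both pools of line 4.

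Around the pseudogene *Gm1966* on chromosome 7, 14 other genes within 1 Mb were tested, of which 12 were higher in line 4 and none was called. At an unadjusted *p* under 0.05, 8 were higher and 1 was lower. Log2 fold changes were 0.84 for *Syt9*, 0.78 for *Olfml1*, 0.77 for *Rrp8* and -3.22 for *Gm4759*, with adjusted *p* values by edgeR of 0.107, 0.231, 0.135 and 0.220.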
